A study of Mus musculus with 18 samples.

Results

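Immediate early genes are the first genes that a cell transcribes after a stimulus, without waiting for new protein. The 10 genes described here were chosen by name: Fos, Fosb and Fosl2, Jun and Junb, Egr1 and Egr2, Nr4a1, and Ier2 and Ier3. They are read by 13 of the array's 45101 probe sets, a probe set being a group of short probes against one transcript. They make up 10 of the 18193 genes that have a probe set of their own, and 9 of them passed a filter on low signal that 14432 genes passed. Fosb did not pass. The 18 arrays carry mouse RNA of strain C57/B6. They form 6 groups of 3, from the genotypes Hmgn1+/+ and Hmgn1-/- (below, +/+ and -/-) crossed with the cell types ES cell, neural progenitor and neuron. ES cells were kept with LIF and serum replacement, with or without fibroblast feeders, and the neural cells were derived from them with a kit for dopaminergic neurons. The labels name no acute stimulus, number of ES cell lines or feeder status per array. Replicates are labelled as biological without mention of separate cultures, so p-values measure the spread between these arrays, which may be technical. Any further difference between the cells of the 2 genotypes and the Hmgn1 genotype itself cannot be told apart.

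Growth factors, depolarisation and stress reach these genes through the ERK, p38 and JNK kinase cascades and through cyclic AMP. The cascades act on factors already bound at the promoters, chiefly the serum response factor with its ternary complex partners and CREB. FOS and JUN family proteins then pair into the transcription factor AP-1, EGR1, EGR2 and NR4A1 are DNA-binding factors of their own, and IER2 and IER3 are small regulators, IER3 of survival signalling. HMGN1 binds nucleosomes and competes with the histone kinases of the MSK family for histone tails, and it has been reported to tune how strongly immediate early genes are induced. Several of these genes are also read as marks of neuronal activity in the brain. The comparisons address whether their levels differed between genotypes in each cell type, and how they changed along differentiation.

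Hmgn1 itself was lower in the -/- cells on its 3 bright probe sets, with no overlap between genotypes in any cell type. On the probe set chosen for the gene it was at 11021.6 to 11331.8 in +/+ ES cells and 8769.9 to 9079.2 in -/- ES cells, at 10841.4 to 11594.3 and 8653.7 to 9219.2 in the progenitors, and at 8734.9 to 9259.2 and 7119.1 to 7313 in the neurons. The loss of signal was 1.24-fold to 1.47-fold over those probe sets and cell types, and the sources used here do not give the position of the probes relative to the altered allele. The ES cells and neurons carried their markers: the summed signal of 6 ES cell markers was 29320.2 to 31488.1 in ES cells and at most 1412.1 elsewhere, and that of 7 neuronal markers was 25324.6 to 29164.4 in neurons and at most 5923.7 elsewhere. The summed signal of the 6 progenitor markers did not set the progenitors apart, at 19073.1 to 20533.6 there, 20532.2 to 21065.2 in neurons and 6911.9 to 7367.8 in ES cells. Such sums follow the brightest markers: Sox2 alone gave 6599.1 to 6901.1 in +/+ ES cells. Taken singly, 3 of the 6 were called lower and 1 higher in neurons than in progenitors, in each genotype. The median log2 differences were -0.26 in +/+ and -0.43 in -/- cells, against -0.11 and -0.13 over all tested genes. Signal of other cell types also changed with stage in +/+ cells. Sums of fibroblast and mesenchyme markers were 384.7 to 453.7, 9491.2 to 10149.8 and 15619.3 to 18115 in ES cells, progenitors and neurons. In that order the endoderm sums were 243.7 to 323.1, 7154.8 to 7375 and 1836.7 to 1927.2. For astroglia they were 135.3 to 152.1, 187.8 to 199.5 and 2291.4 to 2927.6. The part of such cells in the changes along differentiation was not tested. The third +/+ ES cell array was unlike its mates: 32 genes differed over 2-fold there, 30 of them upward, against 0 to 12 genes on the other arrays. Fos was among those 32 genes, the fourth by size.

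The promoters of the genes that the results turn on are shown first. In RefSeq's table of promoters (build GRCm38.p6) 8 of the 10 genes had an entry, with 12 start sites in all. Egr1 and Ier2 were not in it. The 250 bases before each start were searched on both strands for the CArG box (the binding site of the serum response factor), the cyclic AMP response element TGACGTCA and its short form TGACG, which lies within it, the AP-1 site TGANTCA, the EGR site GCGNGGGCG and the TATA box TATAAA. Capitals mark the matches. Fos rose at both steps of differentiation (chr12:85473640-85473889, + strand).
Fos: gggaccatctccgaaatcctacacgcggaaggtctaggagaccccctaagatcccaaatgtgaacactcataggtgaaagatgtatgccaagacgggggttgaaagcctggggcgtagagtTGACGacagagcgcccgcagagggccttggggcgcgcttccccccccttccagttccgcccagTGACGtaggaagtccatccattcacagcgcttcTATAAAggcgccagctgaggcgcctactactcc
Jun rose at both steps and was lower in -/- ES cells (chr4:95052223-95052472, - strand).
Jun: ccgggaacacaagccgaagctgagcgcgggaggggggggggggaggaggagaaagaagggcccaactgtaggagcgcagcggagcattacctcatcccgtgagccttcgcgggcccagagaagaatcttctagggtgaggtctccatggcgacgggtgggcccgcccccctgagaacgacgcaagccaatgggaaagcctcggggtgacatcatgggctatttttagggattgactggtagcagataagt
Ier3 was higher in -/- progenitors (chr17:35821463-35821712, + strand).
Ier3: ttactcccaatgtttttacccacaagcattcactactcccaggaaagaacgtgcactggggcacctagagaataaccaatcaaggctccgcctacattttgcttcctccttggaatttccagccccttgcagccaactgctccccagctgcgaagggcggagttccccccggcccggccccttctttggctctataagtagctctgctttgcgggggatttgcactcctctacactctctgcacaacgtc
Nr4a1 fell from progenitors to neurons (chr15:101266596-101266845, + strand).
Nr4a1: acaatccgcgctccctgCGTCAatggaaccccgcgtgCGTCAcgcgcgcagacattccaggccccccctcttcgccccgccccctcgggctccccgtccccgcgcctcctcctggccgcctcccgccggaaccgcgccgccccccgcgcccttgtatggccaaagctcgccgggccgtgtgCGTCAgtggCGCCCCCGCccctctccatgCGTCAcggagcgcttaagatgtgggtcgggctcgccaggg

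The Fos window held TGACG at 129 to 125 and at 66 to 62 bases before the start, and TATAAA at 33 to 28. The Nr4a1 window held TGACG 4 times on the opposite strand, at 233 to 229, 213 to 209, 69 to 65 and 40 to 36 bases before the start, and 1 EGR site at 60 to 52. None of the 6 motifs was found in the Jun or Ier3 windows, which says only that these letters are not there. TGACG stood before at least 1 start of 5 of the 8 genes (Fos, Fosb, Junb, Egr2, Nr4a1) and in 17.8% of all 32851 windows of that length. Gene counts here and below take any start, and Egr2 has several, while the percentages are of single windows, so the 2 are not like for like. The EGR site stood before 3 of the 8 (Fosb, Fosl2, Nr4a1) and in 4.7% of windows, and the CArG box before 1 (Egr2) and in 1.47%. TATAAA was found for Fos and in 12.4% of windows. TGACGTCA and TGANTCA, in 1.55% and 6.75% of windows, were found for none of the 8. These are matches of letters and no measure of binding. Bases further upstream than these windows were not searched, nor was any window of Egr1 or Ier2. A motif not found here, such as the CArG box for Fos, may therefore still lie outside the window.

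Fos, the founding AP-1 subunit, was at 116.8, 114.7 and 415 on the +/+ ES cell arrays, at 601.7, 598.6 and 729.9 in +/+ progenitors and at 2102.8, 1699.8 and 2135.4 in +/+ neurons. The -/- ES cell arrays read 113.3, 121.6 and 112.6, the -/- progenitors 818.8, 787.8 and 825.3, and the -/- neurons 1813.7, 1541.3 and 1802.2. Cell types did not overlap, and the third +/+ ES cell array was over 3 times its 2 mates. Differences here are log2 differences of the deposited intensity plus 1, with the standard error (SE) of a limma fit over the 18 arrays, and "rose", "fell" and "called" mean a Benjamini-Hochberg adjusted p under 0.05 over all 14432 genes. Fos rose from ES cells to progenitors by 1.85 (SE 0.32, adjusted p = 5.36e-05) in +/+ cells and by 2.80 (SE 0.32, adjusted p = 4.33e-07) in -/- cells. From progenitors to neurons it rose by 1.62 (adjusted p = 0.000203) in +/+ and 1.08 (adjusted p = 0.00543) in -/- cells. Without the third +/+ ES cell array the first of these rises was 2.46 (SE 0.10). In such bulk samples fewer cells of a type and less RNA per cell cannot be told apart.

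**Figure D1:**
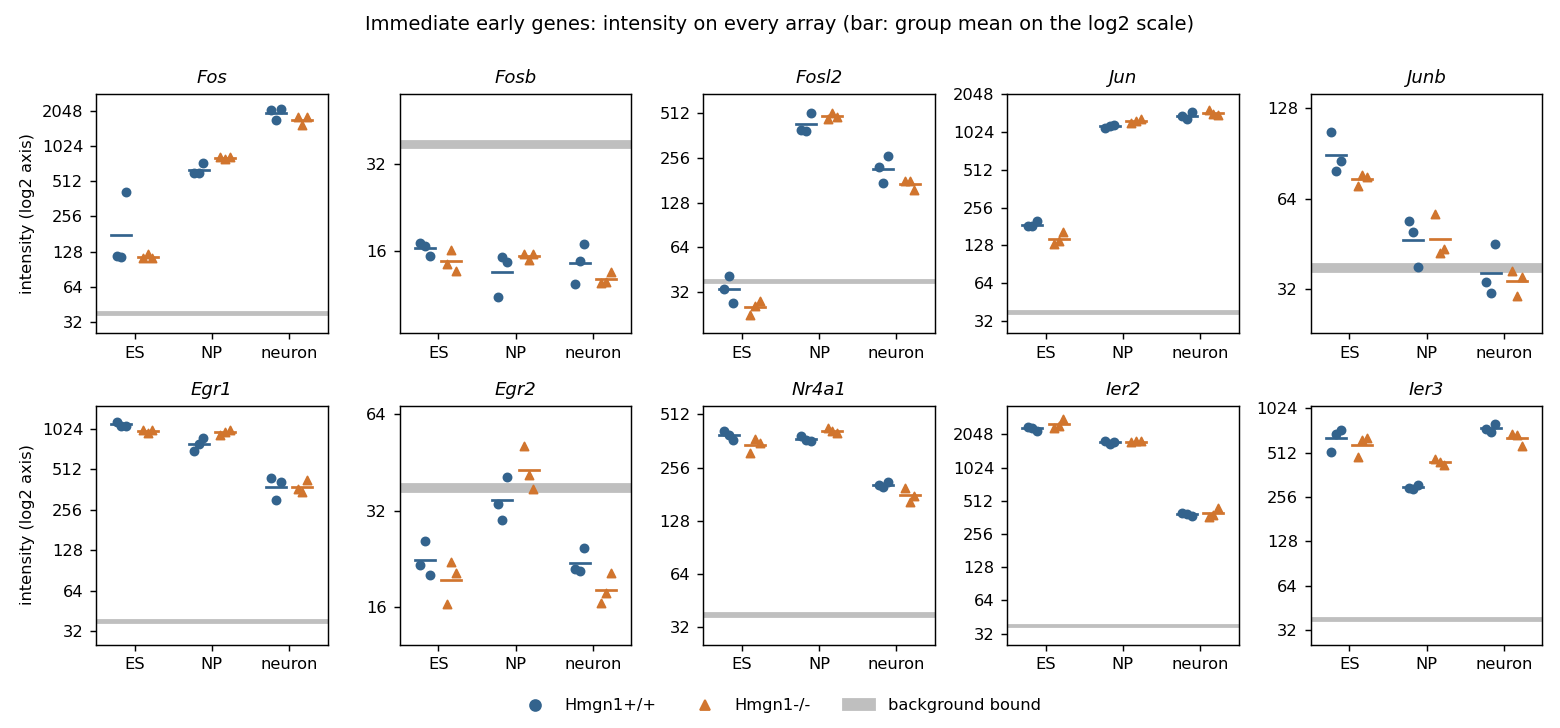
Intensity of each of the 10 genes on every array (y axis, log2 scale; points are arrays, bars are group means on the log2 scale) by cell type (x axis) and genotype (colour and marker). Fos, Fosl2 and Jun were higher in progenitors and neurons than in ES cells, Ier2, Egr1 and Nr4a1 were lowest in neurons, and all 18 Fosb values, 11.1 to 17.1, lay under the grey background bound of 36.6 to 38.7.

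Fosl2, which encodes the AP-1 subunit FRA-2, peaked in the progenitors. The +/+ ES cell arrays gave 33.5, 41.2 and 27.2, the +/+ progenitors 397, 391.8 and 515.5, and the +/+ neurons 223, 172.7 and 263.2. The -/- ES cells read 22.5, 25.9 and 28, the -/- progenitors 470, 516.4 and 485.6, and the -/- neurons 179.9, 179.2 and 155.4. Every progenitor array was above every neuron array, and every neuron array above every ES cell array. All -/- ES cell arrays, and 2 of 3 +/+ ones, lay under the background bound, which is the 40th percentile of each array (36.6 to 38.7). The fitted rise to progenitors in +/+ cells was 3.65 (SE 0.15, adjusted p = 1.01e-12), a value that takes in the 2 ES cell arrays under the bound. In -/- cells, measured against the bound, it was at least 12.7-fold, with an adjusted p of 1.41e-13 for the fit. Fosl2 then fell by 0.99 (adjusted p = 1.77e-05) in +/+ and by 1.51 (adjusted p = 1.07e-07) in -/- cells on the way to neurons. A second, dimmer probe set of Fosl2 did not show the peak: it stayed between 38.3 and 65.4 on all arrays, differed by -0.02 (adjusted p = 0.877) and 0.18 (adjusted p = 0.0974) at the first step, and fell by 0.27 and 0.45 at the second (adjusted p = 0.0189 and 0.000449).

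Fosb, whose product is another AP-1 subunit, gave values of 11.1 to 17.1. No array of any group reached the bound, so no comparison of it is given.

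Jun, the main partner of FOS, was at 181.1, 182.3 and 198.9 in +/+ ES cells, at 1103.5, 1144.3 and 1168 in +/+ progenitors and at 1383.3, 1297.1 and 1487.9 in +/+ neurons. The -/- ES cells gave 131, 138.2 and 164, the -/- progenitors 1218.1, 1251.9 and 1303.6, and the -/- neurons 1537.5, 1419.7 and 1412.4. Within each genotype the 3 cell types did not overlap. Jun rose into progenitors by 2.60 (SE 0.08, adjusted p = 8.54e-15) in +/+ and 3.12 (SE 0.08, adjusted p = 7.98e-16) in -/- cells. The step to neurons was smaller, at 0.29 (adjusted p = 0.0026) and 0.21 (adjusted p = 0.0177). The -/- call at that step was lost without replicate 1 of the -/- progenitors (adjusted p = 0.0598) or of the -/- neurons (adjusted p = 0.0755). A second Jun probe set rose 8.02-fold and 9.73-fold into progenitors (adjusted p = 1.95e-10 and 5.56e-11), and differed by 0.45 (adjusted p = 0.0373) and 0.32 (adjusted p = 0.126) at the step to neurons.

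Junb, the AP-1 subunit that often opposes JUN, went the other way. On the +/+ arrays ES cells gave 106.4, 78.8 and 85.5, progenitors 53.8, 49.7 and 38, and neurons 33.9, 31.2 and 45.2. The -/- ES cells read 70.7, 76.6 and 75.7, the -/- progenitors 56.9, 42.1 and 43.5, and the -/- neurons 36.8, 30.5 and 35.2. ES cell arrays were above all others, while the +/+ progenitors and neurons overlapped near the background bound, which all 3 -/- neuron arrays were under. Junb fell by 0.92 (SE 0.15, adjusted p = 3.59e-05) in +/+ and by 0.65 (SE 0.15, adjusted p = 0.00108) in -/- cells at the first step. At the second it fell by 0.35 (adjusted p = 0.0453) in +/+ cells, a call lost in 11 of the 18 fits that leave out 1 array (adjusted p up to 0.186), and in -/- cells it was at least 1.24-fold lower (adjusted p = 0.0126), a call lost without replicate 1 of the -/- progenitors (0.079) or replicate 2 of the -/- neurons (0.0576).

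Egr1, a zinc finger factor induced by ERK signalling, had its lowest level in neurons. The +/+ ES cells gave 1141.3, 1080.9 and 1079.9, the +/+ progenitors 700.5, 788.9 and 876.9, and the +/+ neurons 443, 301.8 and 411.8. Egr1 on the -/- arrays was at 995.3, 945.1 and 1002.2 in the same order of cell types, then at 911.4, 968.4 and 1001, then at 361.9, 345.3 and 424.8. In +/+ cells the 3 cell types did not overlap, but the -/- ES cells and -/- progenitors did. The first step was a fall of 0.49 (SE 0.12, adjusted p = 0.00114) in +/+ cells and a difference of -0.03 (SE 0.12, 95% interval -0.28 to 0.22, adjusted p = 0.815) in -/- cells. The difference between those 2 values, 0.45 (SE 0.16), was not called (adjusted p = 0.0715). It was called in 3 of 27 alternative fits. These were the fit without the second +/+ neuron array (adjusted p = 0.0158), the compared arrays alone (0.0141) and a spread that varies with intensity (0.0378). At the second step Egr1 fell by 1.04 (adjusted p = 3.27e-07) in +/+ and by 1.35 (adjusted p = 1.16e-08) in -/- cells.

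Egr2, an EGR factor known from hindbrain and Schwann cells, reached the bound on progenitor arrays alone. Its values there were 33.6, 29.9 and 40.8 in +/+ and 51.1, 41.3 and 37.5 in -/- cells, and the other 12 arrays gave 16.3 to 25.8. Among those 6 progenitor arrays, 1 of the +/+ group and 2 of the -/- group reached the bound, so folds are limits: at least 1.13-fold higher in -/- progenitors than in -/- ES cells (adjusted p = 1.46e-06) and at least 1.14-fold lower in -/- neurons than in -/- progenitors (adjusted p = 5.09e-07). For +/+ cells the same steps were called on the measured values (adjusted p = 0.000859 and 0.000617), with no fold left against the bound. Egr2 passed the signal filter only through these progenitor arrays. Its higher level there was thus a condition of being tested, and the calls are no support for a rise or fall. A second Egr2 probe set stayed under the bound on all arrays, at 11 to 21.8.

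Nr4a1, an orphan nuclear receptor, was lower in neurons than in both other cell types. Among +/+ arrays ES cells read 414.1, 394.3 and 369.1, progenitors 386, 365.4 and 361.3, and neurons 202.9, 197.6 and 213.3. Its -/- values, ES cells first, were 310.8, 372.9 and 352.2, then 431.6, 410.1 and 401.6, then 197.4, 164.3 and 177.4. Neurons lay under all other arrays, and the +/+ ES cells and progenitors overlapped. The -/- neurons lay under the +/+ ones by a narrow margin, 197.4 against 197.6 for the nearest arrays. At the first step the difference was -0.08 (SE 0.07, adjusted p = 0.334) in +/+ cells and a rise of 0.27 (SE 0.07, adjusted p = 0.00397) in -/- cells. After quantile normalization the +/+ value became a fall of 0.22 (adjusted p = 0.0102). Nr4a1 fell at the second step by 0.86 (adjusted p = 1.51e-08) and by 1.20 (adjusted p = 1.50e-10).

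Ier2, a short-lived nuclear regulator, showed the steepest fall into neurons among the 9 genes in both genotypes. Its +/+ values were 2379.4, 2361.3 and 2224.2 for ES cells, 1792.1, 1688.3 and 1757.5 for progenitors, and 399.9, 391.8 and 369.9 for neurons. The -/- ES cells gave 2360.6, 2419.9 and 2811.5, the -/- progenitors 1753.1, 1774.9 and 1773.2, and the -/- neurons 364.3, 384.2 and 439.8. The 3 cell types did not overlap in either genotype, and the genotypes overlapped in each cell type. Ier2 fell by 0.41 (SE 0.07, adjusted p = 6.44e-05) and 0.51 (SE 0.07, adjusted p = 5.42e-06) into progenitors, in +/+ and -/- cells in turn. Into neurons it changed by -2.17 (adjusted p = 5.84e-14) and -2.16 (adjusted p = 5.28e-14), a 4.50-fold and a 4.47-fold fall.

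Ier3, a stress-induced modulator of survival signalling, dipped in the progenitors. For +/+ cells the ES arrays read 520.9, 692.2 and 732.5, the progenitors 297.3, 292.6 and 311.2, and the neurons 740.5, 711.1 and 804.7. Among -/- arrays the ES cells read 478.9, 622.6 and 644.9, the progenitors 464.9, 443.4 and 420.7, and the neurons 685, 671.4 and 571.6. The progenitors lay below both other cell types in each genotype, and the dip was shallower in the -/- cells. The fall into progenitors was 1.09 (SE 0.12, adjusted p = 3.18e-07) in +/+ and 0.38 (SE 0.12, adjusted p = 0.00892) in -/- cells. The rise into neurons was 1.32 (adjusted p = 2.87e-08) in +/+ and 0.53 (adjusted p = 0.000744) in -/- cells.

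**Figure D2:**
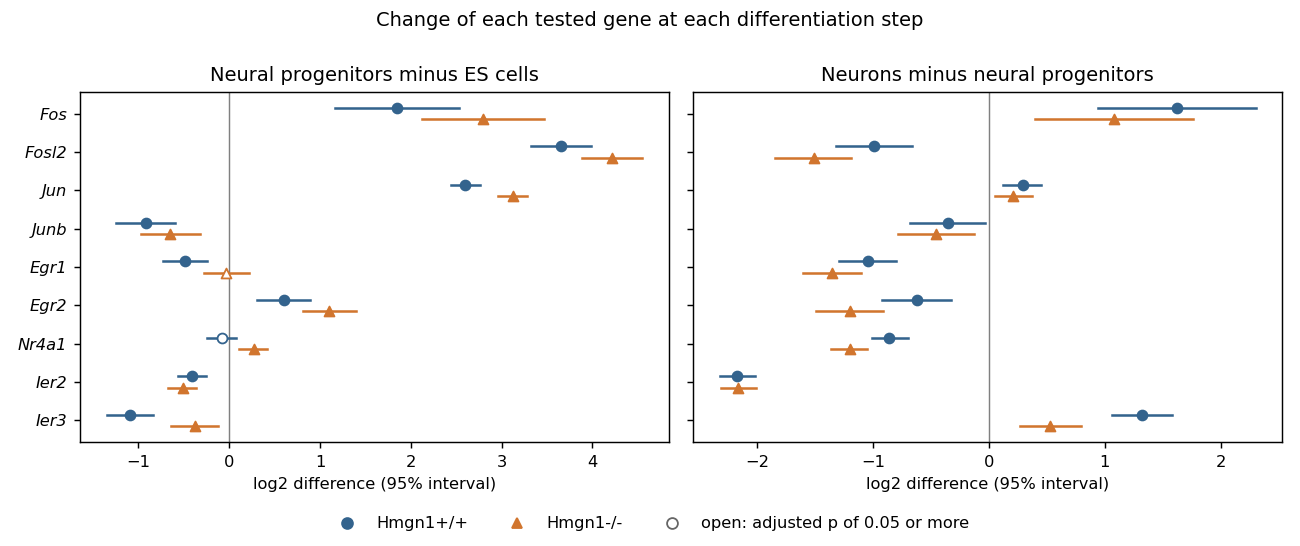
Log2 difference (x axis) of each of the 9 tested genes (y axis) between neural progenitors and ES cells (left) and between neurons and neural progenitors (right), with the 95% interval of the limma fit, for +/+ (circles) and -/- cells (triangles); open symbols were not called. At the first step Jun differs by 2.60 and 3.12, and at the second Ier2 by -2.17 and -2.16. Points of Fosl2, Egr2 and Junb are as fitted, although groups of these genes lie under the background bound, where the text gives limits.

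Across the genes the order of levels was thus not shared. From ES cells to +/+ progenitors 4 of the 9 rose (Fos, Fosl2, Jun, Egr2) and 4 fell (Junb, Egr1, Ier2, Ier3), where 78.5% of all tested genes were called (41.3% higher, 37.2% lower). Egr2 is counted here and at the other steps as fitted, although its progenitor arrays alone let it pass the filter. In -/- cells 5 rose and 3 fell, against 77.7% of all genes (39.8% higher, 38% lower), with Nr4a1 added to the higher ones and Egr1 not called. From progenitors to neurons 3 rose (Fos, Jun, Ier3) and 6 fell in +/+ cells, where 79% of all genes were called (34.6% higher, 44.4% lower). The counts were likewise 3 and 6 in -/- cells, against 80.9% (35.2% higher, 45.6% lower). The share called was near that of all genes at each step. Fos and Jun rose at both +/+ steps, as did 18% of all genes, and Junb, Egr1 and Ier2 fell at both, as did 18.8%. None of the 9 was called at neither +/+ step, as 5.62% of all genes were. On the log2 scale the group means of Fos spanned 4.08, those of Jun 3.33 and those of Nr4a1 1.20, and the span of Fosl2 was at least 3.66 measured against the bound. The SD within groups was largest for Fos, at 0.45 against a median of 0.10 over all tested genes, and Jun, Ier2 and Nr4a1 each had an SD of 0.09. The Fos value rested on the third +/+ ES cell array. By group its SD was 1.06 in +/+ ES cells and 0.04 to 0.18 in the others.

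In ES cells Jun was the 1 gene of the 9 called between genotypes, lower in -/- by 0.38 (SE 0.08, adjusted p = 0.00409), a 1.30-fold difference with every -/- array below every +/+ array. Of all genes 14.9% were called there (10.5% higher, 4.32% lower), and 70.9% of those calls were higher in -/- (54.2% after quantile normalization). The second Jun probe set differed by -0.17 (SE 0.19, adjusted p = 0.593), with values of 53.3, 90.3 and 44.4 in +/+ and 40.8, 61.4 and 59.5 in -/- ES cells. With the mean of both probe sets the Jun difference was -0.28 (adjusted p = 0.0988), and with the 6 ES cell arrays alone -0.38 (adjusted p = 0.0936), so both settings ended the call. The groups did not overlap for 3 genes (Jun, Junb, Egr1, all lower in -/-), against 28.3% of all genes in either direction (20.1% higher, 8.23% lower). Measured differences were below 0 for 8 of the 9 genes, all but Ier2, and for 40% of all genes, with a median of -0.19 against 0.04. Among those 8, Egr2 was under the bound on every ES cell array of both genotypes and Fosl2 on every -/- one. The Fos difference was 0.00 without the third +/+ array. These 3 genes are thus no support for a shared direction.

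Among the uncalled genes in ES cells, Junb differed by -0.27 (95% interval -0.59 to 0.06, adjusted p = 0.265) and Egr1 by -0.17 (-0.41 to 0.08, adjusted p = 0.362). Nr4a1 differed by -0.19 (-0.35 to -0.03, adjusted p = 0.105), and after quantile normalization by -0.24, which was called (adjusted p = 0.0393). Fosl2 was under the background bound on all -/- and on 2 of the 3 +/+ arrays there, and no difference was left against the bound. The fit's adjusted p was 0.104 with all arrays and 0.0431 without the third +/+ array. With the mean of both Fosl2 probe sets, which takes in the values under the bound, the difference was -0.30 (adjusted p = 0.0324). Its second probe set, above the bound on all ES cell arrays, differed by -0.20 and was not called (adjusted p = 0.186). The intervals of Ier2 (-0.03 to 0.27) and Ier3 (-0.41 to 0.11) also included 0.

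Fos in ES cells rested on 1 array. With all arrays it differed by -0.61 (SE 0.32, adjusted p = 0.213) between genotypes. Without the third +/+ array, at 415, the difference was 0.00 (SE 0.10, adjusted p = 0.999). On that array Fos lay 1.83 (log2) above its group mates, while the other 8 genes lay between -0.44 and 0.29. None of the tested markers of other cell types, such as fibroblasts or endoderm, deviated there by over 1, and the medians of their lists lay between -0.28 and 0.05. Several of these markers, such as Col3a1, Pdgfrb, Aqp4 and Cdh5, were under the background bound on every +/+ ES cell array. The cause of the high Fos value was not tested.

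**Figure D3:**
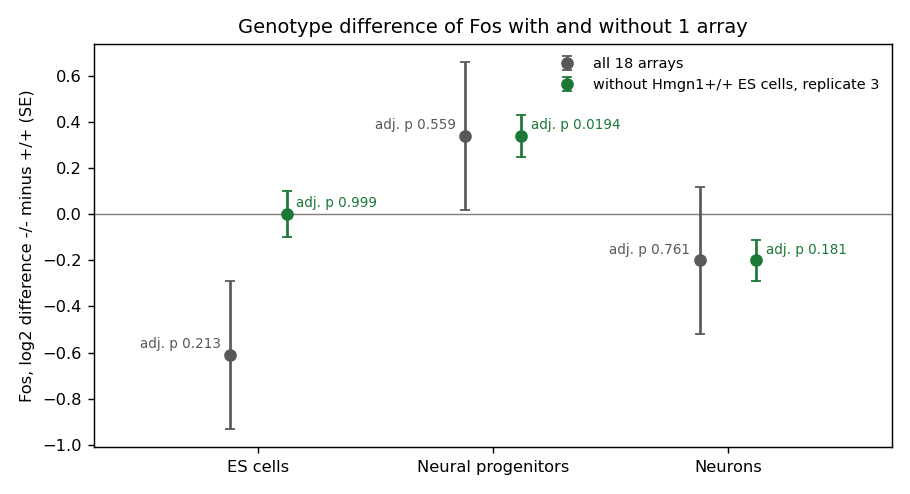
Genotype difference of Fos (y axis, log2, -/- minus +/+; error bars are SE) in the 3 cell types (x axis), with all 18 arrays (grey) and without the third +/+ ES cell array (green), each with its adjusted p. Leaving out that array moves the ES cell value from -0.61 to 0.00 and narrows the SE in the other cell types, with the progenitor value staying at 0.34 as its adjusted p goes from 0.559 to 0.0194.

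In neural progenitors the called gene was Ier3, higher in -/- by 0.56 (SE 0.12, adjusted p = 0.0038), a 1.47-fold difference with every -/- array above every +/+ array. Of all genes 17% were called in this comparison (7.81% higher, 9.19% lower). All 9 differences were above 0, while 49.5% of all genes were below it, with a median of 0.18 against 0.00. Egr2 is counted here although it passed the signal filter only through 1 +/+ and 2 -/- progenitor arrays. Its value is thus no support for a direction. The groups did not overlap for 5 genes, all higher in -/- (Fos, Jun, Egr1, Nr4a1, Ier3), against 40.8% of all genes in either direction (20% higher, 20.8% lower). Egr1 differed by 0.29 (95% interval 0.04 to 0.54, adjusted p = 0.11), Egr2 by 0.31 (0.01 to 0.60, adjusted p = 0.158), Nr4a1 by 0.16 (0.00 to 0.32, adjusted p = 0.177) and Jun by 0.14 (-0.02 to 0.30, adjusted p = 0.239).

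Fos differed by 0.34 in progenitors (SE 0.32, adjusted p = 0.559), with 601.7 to 729.9 in +/+ and 787.8 to 825.3 in -/- cells. All groups share one estimate of the spread, in which the third +/+ ES cell array takes part. Without that array the difference was again 0.34, with an SE of 0.09 and an adjusted p of 0.0194, and with the progenitor arrays alone it was called too (SE 0.08, adjusted p = 0.0209). Egr1 was also called with the progenitor arrays alone (adjusted p = 0.044) and without the second +/+ neuron array (adjusted p = 0.0261). Ier2, Junb and Fosl2 differed by 0.02, 0.01 and 0.18 and were not called.

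Markers of other cell types moved with genotype in the progenitors. The summed signal of 8 tested fibroblast and mesenchyme markers of 9 was 9491.2 to 10149.8 in +/+ and 16860.7 to 17341.4 in -/- progenitors, and that of the 6 endoderm markers was 7154.8 to 7375 and 2937.3 to 3225.4. Every marker of both lists was above the bound on all of these arrays. Of the 6 endoderm markers 4 were lower and 1, Afp, was higher in -/- progenitors. The sum of the 6 ES cell markers was 1302.7 to 1412.1 in +/+ and 870.3 to 968 in -/- progenitors, with 4 of them called lower. In the neurons the fibroblast and mesenchyme sum was 15619.3 to 18115 in +/+ and 25941.7 to 30248.7 in -/- cells, and the endoderm sum 1836.7 to 1927.2 and 1224.4 to 1321.7. The part of these cells in the genotype differences of the immediate early genes was not tested.

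In neurons none of the 9 genes was called by limma between genotypes, where 13.2% of all genes were (5.95% higher, 7.27% lower), and 2 had an unadjusted p under 0.05 (Fosl2 and Nr4a1). Fosl2 differed by -0.34 (SE 0.15, adjusted p = 0.176) and Nr4a1 by -0.19 (95% interval -0.35 to -0.03, adjusted p = 0.115). Fosl2 was called without the second +/+ neuron array (-0.50, adjusted p = 0.048) and Nr4a1 without the first -/- neuron array (-0.26, adjusted p = 0.0408). The groups did not overlap for Egr2, Ier3 and Nr4a1, all lower in -/-, against 31.5% of all genes in either direction (13.1% higher, 18.4% lower), and Egr2 was under the bound on all neuron arrays. For Nr4a1 the groups nearly touched, with the lowest +/+ array at 197.6 and the highest -/- array at 197.4. Differences were below 0 for 7 of the 9 genes and for 57.4% of all genes, with a median of -0.19 against -0.02. Fos differed by -0.20 (-0.88 to 0.48), Ier3 by -0.23 (-0.49 to 0.03) and Jun by 0.07 (-0.09 to 0.23). Over the 3 cell types 2 of the 9 genes were called between genotypes at least once, against 34.8% of all genes.

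**Figure D4:**
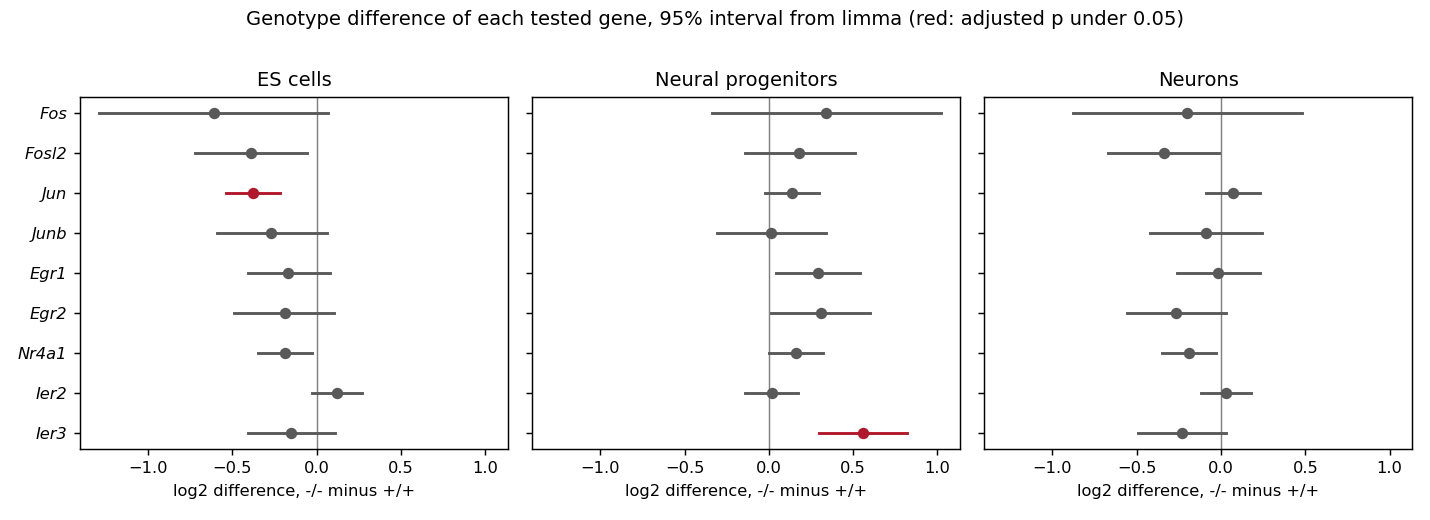
Log2 difference between genotypes (x axis, -/- minus +/+) of each of the 9 tested genes (y axis) in the 3 cell types, with the 95% interval of the limma fit; red marks an adjusted p under 0.05. The called values are Jun in ES cells (-0.38) and Ier3 in progenitors (0.56), and the points lie mostly left of 0 in ES cells and neurons and right of 0 in progenitors. Points of Fosl2, Egr2 and Junb are as fitted, although groups of these genes lie under the background bound. The Fos point in ES cells rests on the third +/+ array.

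Whether the genotype difference itself changed between cell types was tested as an interaction. From ES cells to progenitors it moved upward for 3 of the 9 genes and downward for none, where 16.3% of all genes were called (5.71% upward, 10.6% downward). Jun moved by 0.52 (SE 0.11, adjusted p = 0.00338), Ier3 by 0.71 (SE 0.17, adjusted p = 0.00967) and Nr4a1 by 0.35 (SE 0.11, adjusted p = 0.0347). Egr1 at 0.45 (adjusted p = 0.0715) was not called, nor were Fosl2 (0.0875) and Egr2 (0.0949), whose ES cell values lie at or under the bound. Of 27 alternative fits, Egr1 was called in 3, Egr2 in 1 and Fosl2 in 4, among them the mean of its probe sets (adjusted p = 0.0386). Fos at 0.95 (SE 0.45, adjusted p = 0.168) became 0.34 (adjusted p = 0.124) without the third +/+ ES cell array. The Jun interaction was 0.40 (adjusted p = 0.0797) with the mean of its probe sets, and that of Nr4a1 was lost in 7 of the 18 fits that leave out 1 array (adjusted p up to 0.0834).

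From progenitors to neurons the genotype difference moved downward for 2 of the 9 genes, where 11.1% of all genes were called (5.67% upward, 5.41% downward). Ier3 moved by -0.79 (SE 0.17, adjusted p = 0.00713) and Nr4a1 by -0.35 (SE 0.11, adjusted p = 0.0443). The Nr4a1 call was lost in 12 of the 18 fits that leave out 1 array (adjusted p up to 0.111). Fos moved by -0.54 (SE 0.45, adjusted p = 0.512) with all arrays and by -0.54 (SE 0.13, adjusted p = 0.015) without the third +/+ ES cell array. Between ES cells and neurons 1 gene moved, Jun, by 0.45 (SE 0.11, adjusted p = 0.011), where 15.7% of all genes were called (4.7% upward, 11% downward). Of those calls 30% were upward, or 43.3% after quantile normalization. With the mean of its probe sets that was 0.30 (adjusted p = 0.193). These 3 comparisons share arrays with each other and with the genotype comparisons above, so their values are not independent.

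In some groups 1 array was the highest or lowest for most of the 9 genes. In +/+ neurons replicate 3 was the highest for 7, against 37.8% of all genes, and replicate 2 the lowest for 8, against 43.8%. In -/- ES cells replicate 1 was the lowest for 7, against 43.5% of all genes. In +/+ progenitors replicate 3 was the highest for 6, against 38% of all genes, and in -/- neurons replicate 1 was the highest for 6, against 32.1%. In the other groups, +/+ ES cells and -/- progenitors, no array was the highest or lowest for more than 5. The median deviation of the 9 genes was 0.11 (log2) on +/+ neuron replicate 3 and -0.10 on replicate 2.

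Relatives of these genes were read from lists of the wider pathway. The shares of all tested genes to set beside their counts are, for higher and lower in -/- cells, 10.5% and 4.32% (ES cells), 7.81% and 9.19% (progenitors), 5.95% and 7.27% (neurons). Of 9 other AP-1 and related genes, 2 fell in -/- ES cells: Jdp2, a repressor that pairs with JUN, by 0.75 (SE 0.09, adjusted p = 6.83e-05), and Atf3, a stress-induced partner of JUN, by 0.51 (SE 0.14, adjusted p = 0.0227). In -/- progenitors 2 rose, both small MAF factors: Maff by 0.67 (SE 0.09, adjusted p = 4.02e-05) and Mafk by 0.33 (SE 0.07, adjusted p = 0.00348). In neurons limma called none of the 9, against the 13.2% of all genes above, and 2 had an unadjusted p under 0.05 (Batf3 and Mafk). The list's medians were 0.02, 0.06 and -0.06 in the 3 cell types, against 0.04, 0.00 and -0.02 over all tested genes.

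Of 8 further EGR, NR4A and IER genes and EGR corepressors, limma called none in ES cells or neurons and 2 rose in -/- progenitors. An unadjusted p under 0.05 was found for 0 of them in ES cells and for 2 in neurons (Nr4a2 and Nab2). The progenitor calls were Ier5 at 0.34 (SE 0.10, adjusted p = 0.0234) and Nab1, which binds and represses EGR factors, at 0.32 (SE 0.07, adjusted p = 0.00283). The medians were -0.05, 0.20 and -0.03. Among 28 tested other immediate early genes of 29, 5 were higher and 3 lower in -/- ES cells, 11 higher and 3 lower in -/- progenitors, and 3 higher and 5 lower in -/- neurons, with medians of -0.04, 0.13 and -0.06. Of all genes 14.9%, 17% and 13.2% were called in those comparisons. Rhob, a small GTPase, was higher by 0.62 in -/- progenitors (adjusted p = 4.44e-06), as was Ptgs2, the inducible prostaglandin synthase, by 1.99-fold (adjusted p = 0.00348), while Klf4, a pluripotency and growth-arrest factor, was lower (log2 difference -1.09, adjusted p = 3.82e-08). The secreted matrix proteins Ccn1 and Ccn2 differed by -0.96 (adjusted p = 0.000437) and -0.99 (adjusted p = 1.41e-06) in neurons. Ccn1 was at 638.6 to 1088.6 in +/+ and 366.1 to 470.5 in -/- neurons, and the opposite way round in progenitors, at 1375.3 to 1647.3 and 2023.5 to 2336.7. The genotype difference between those cell types moved by -1.53 for Ccn1 (adjusted p = 0.000242) and by -1.47 for Ccn2 (adjusted p = 2.48e-06).

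Upstream, 1 of 11 tested factors of the SRF, ternary complex and CREB group was higher in -/- ES cells (Crem, 0.41, adjusted p = 0.0234), 2 were higher and 1 lower in -/- progenitors, and 1 was higher in -/- neurons, with medians of 0.05, 0.00 and 0.11. Elk3, a ternary complex factor, was the largest of these at 0.72 in progenitors (SE 0.17, adjusted p = 0.00555). Of 14 kinases listed, 8 could be tested: 1 was higher and 1 lower in -/- ES cells, 1 lower in -/- progenitors, and 1 higher and 2 lower in -/- neurons, with medians of 0.07, -0.04 and 0.03. Rps6ka5, which encodes the nucleosomal kinase MSK1, was lower in -/- progenitors (log2 difference -0.43, SE 0.08, adjusted p = 0.00131). In -/- neurons Mapk8, the kinase JNK1, differed by -0.26 (adjusted p = 0.00272), Mapk14, the kinase p38, by -0.19 (adjusted p = 0.0255) and Map2k1, the kinase MEK1, by 0.21 (adjusted p = 0.00479).

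Feedback inhibitors of the same cascades are themselves induced by them. Of 13 tested, 3 were higher and 1 lower in -/- ES cells, 1 higher in -/- progenitors, and 1 higher and 4 lower in -/- neurons, with medians of 0.07, 0.04 and -0.27, against the same 14.9%, 17% and 13.2% of all genes called. Dusp1, a phosphatase of p38 and JNK, was at 1096 to 1256.7 in +/+ and 1476.4 to 1483.7 in -/- progenitors, and at 1465.2 to 1581.9 in +/+ and 1092.3 to 1106.7 in -/- neurons. The groups did not overlap in either cell type and stood in opposite order. The differences were 0.36 (SE 0.06, adjusted p = 0.0004) and -0.48 (SE 0.06, adjusted p = 4.95e-05), and the change between them was -0.83 (SE 0.08, adjusted p = 1.11e-05). Dusp4, a nuclear phosphatase of the ERK cascade, differed by 0.37 in ES cells (adjusted p = 0.0075) and -0.47 in neurons (adjusted p = 0.000985), a change of -0.85 (adjusted p = 0.000219).

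Of 10 tested AP-1 target genes, none was called in ES cells by limma (1, Cd44, had an unadjusted p under 0.05), 1 was higher and 2 lower in -/- progenitors, and 2 were lower in -/- neurons, with medians of -0.12, -0.01 and -0.11. Cd44, a receptor for hyaluronan, was at 944.3 to 1040.2 in +/+ and 1822.4 to 1878.1 in -/- progenitors, a difference of 0.90 (SE 0.14, adjusted p = 0.000296). Mmp3, a matrix protease, differed by -0.63 there (adjusted p = 0.000194), opposite to Cd44. Mesenchymal cells express both genes too, and the sums of their markers in these arrays are given above; their part in these differences was not tested.

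**Figure D5:**
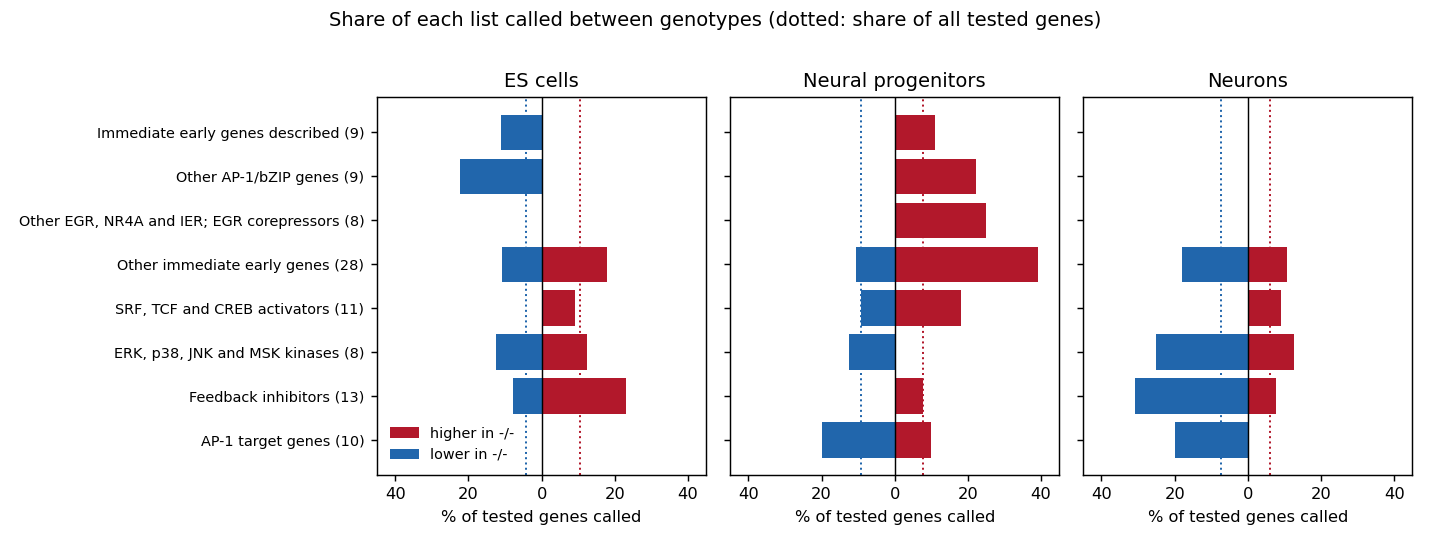
Percent of tested genes called higher (red, right) or lower (blue, left) in -/- than +/+ cells (x axis) for the 9 genes described and 7 related lists (y axis; number tested in brackets), in the 3 cell types. Dotted lines give the share of all 14432 genes, for example 7.81% higher and 9.19% lower in progenitors, where 11 of 28 other immediate early genes were higher.

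For each gene whose group means spanned at least 1 on the log2 scale, the genes with the most similar profile over the 6 groups were found as those with the smallest root mean square (RMS) difference after centring. For Fos they were 2810410L24Rik (RMS 0.16), Ephb1 (0.18), an ephrin receptor, and Ank3 (0.20), the ankyrin of the axon initial segment. Fosl2 was closest to Parva (0.13), a focal adhesion protein, and to Lhx2 and Emx2 (0.18 each), homeobox factors of the forebrain. Jun was closest to Camk2d and Pmp22 (0.13 each). Ier2 ran closest to Grwd1 (0.06), a ribosome assembly factor, and Ier3 to Rap1gap and Clstn3 (0.11 each). For Junb, Egr1, Egr2 and Nr4a1 the nearest were Gm13648 (0.06), Acot9 (0.08), Shc3 (0.07) and Raly (0.06). Values under the bound entered as measured. These are descriptions over 6 group means, out of 14432 genes searched.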

How the data were processed

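RNA from 18 samples was hybridised to Affymetrix mouse arrays, per the labels, with 3 arrays in each of 6 groups. The authors deposited linear intensities, 1 per probe set and array (5.5 to 27823.7), and the submitters' processing notes name RMA and limma without versions or settings. The deposited arrays had medians of 55.7 to 60.5, and a further quantile normalization was among the alternatives. Here log2(intensity + 1) was fitted with limma 3.58.1 (R 4.3.3) as 6 group means with 12 residual degrees of freedom, and p-values were adjusted over all genes by Benjamini-Hochberg. A gene was represented by its probe set of highest mean among those with 1 symbol that reached the 40th percentile of their array on at least 3 arrays. That percentile is the background bound. Of 45101 probe sets 34945 had 1 symbol, 932 several and 9160 none, and 34741 of the first matched RefSeq by gene identifier. All 10 genes were named, and from each list and comparison up to 4 called genes with the largest change. The number of arrays limits the precision. The genes and lists were chosen with earlier results of these data known, and their directions are no independent evidence. The fit was tested on simulated data. Alternatives covered scaling, pseudocount, filter, probe set, fit and single arrays. Arrays of the same number did not deviate together, so they were not treated as pairs.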

Additional observations from a re-analysis of the deposited data

Results flagged for a closer look

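The genotype difference of Jun, Ier3 and Nr4a1 changed between cell types by an interaction test in limma (adjusted p under 0.05), in 6 comparisons, each given here with the size in both cell types. Between ES cells and progenitors it moved by 0.52 for Jun (from -0.38 to 0.14), by 0.71 for Ier3 (from -0.15 to 0.56) and by 0.35 for Nr4a1 (from -0.19 to 0.16). Between progenitors and neurons it moved by -0.79 for Ier3 (from 0.56 to -0.23) and by -0.35 for Nr4a1 (from 0.16 to -0.19). Between ES cells and neurons it moved by 0.45 for Jun (from -0.38 to 0.07). Over 27 alternative fits both Ier3 calls held in all 27. Each Jun call held in 26 and was lost with the mean of its probe sets (adjusted p = 0.0797 and 0.193 in limma). The Nr4a1 calls held in 20 (progenitors and ES cells) and 13 (neurons and progenitors). The fibroblast and endoderm marker sums of the report differ between genotypes in the same progenitor and neuron arrays, and their part was not tested.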

How the results depend on the processing

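The counts of called genes among the 9 were recomputed under each alternative. Leaving out 1 array at a time gave 1 to 2 calls between genotypes in ES cells, 1 to 2 in progenitors and 0 to 1 in neurons, 8 to 8 and 8 to 9 for the +/+ steps, 8 to 8 and 7 to 9 for the -/- steps, and 2 to 4, 1 to 3 and 1 to 1 for the interactions of progenitors with ES cells, neurons with progenitors and neurons with ES cells. In ES cells the count of 1 became 2 with quantile normalization and 0 with the compared arrays alone. Calls over all tested genes went from 2144 to 1686 and 234 under those settings. In progenitors 1 became 4 with array weights and 3 with the compared arrays alone. Calls over all tested genes went from 2453 to 3989 and 3342 there. The 2 calls of the interaction of neurons with progenitors became 4 with array weights and 1 with no signal filter, and the 1 call of neurons with ES cells became 0 with the mean of all probe sets. With array weights the calls of the former over all tested genes went from 1599 to 2370. The cause of these changes was not tested. With the replicate number as a block the interaction of neurons with progenitors had 1 call, Nr4a1 being lost (-0.35, adjusted p = 0.0611), and the block changed no other call. Correlations between arrays of the same number were -0.14 to 0.12, and in no comparison were all over 0.1. A value crossed 0 and moved by at least its SE in 5 cases, all uncalled and with 1 array left out; smaller crossings of 0 by uncalled values are not listed. Over these fits Fos ran from -0.92 to 0.00 in ES cells and from -0.20 to 0.72 for the interaction of neurons with ES cells, turning without +/+ ES cell replicate 3. Junb in neurons ran from -0.20 to 0.06 (turning without +/+ replicate 3), Egr1 for the same interaction from -0.02 to 0.26 (+/+ neuron replicate 2) and Ier2 in neurons from -0.05 to 0.09 (-/- replicate 3). Apart from single arrays, 788 fitted differences of single genes kept their call, 15 gained one and 7 lost one. Signal near background limits Fosb, Egr2, Junb in neurons and Fosl2 in ES cells.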

Other observations

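The called relatives and other immediate early genes with the largest changes along differentiation included the following. Nr4a2, a nuclear receptor needed by dopamine-producing neurons, rose by 1.59 (SE 0.25, adjusted p = 1.84e-05) into +/+ progenitors and by 1.74 (adjusted p = 6.72e-06) into +/+ neurons, while Nr4a1 fell at the second step. Its values were 26.9 to 81.3 in +/+ ES cells, 141.7 to 147.5 in progenitors and 443.6 to 512.8 in neurons. Nr4a3, the other member of that receptor family, rose by 2.75 (adjusted p = 1.59e-12) into +/+ progenitors. Ier5, a relative of Ier2, rose by 2.83 (adjusted p = 6.23e-14) and 0.69 (adjusted p = 5.60e-06) at the steps where Ier2 fell. Klf2, a pluripotency-linked factor, fell by 3.89 (adjusted p = 2.40e-14) into +/+ progenitors, and Btg2, an antiproliferative gene, rose by 2.55 (adjusted p = 1.96e-14). At each of these steps most genes of the array were called, as given in the report, and the median of the 9 other AP-1 genes at the first +/+ step was 0.30.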
